A study of Homo sapiens with 6 samples.

Results

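The genes described here are 37 genes of homologous recombination and of the Fanconi anemia pathway, chosen by name and matched by Ensembl ID in GENCODE version 44, among the 58825 genes of the count table. All 37 were among the 19528 genes that passed the filter on low counts, and their counts lay between 60 (FANCB) and 4170 (XRCC3) per library. RNA was measured in 6 libraries of HGC-27, a human gastric cancer cell line grown in RPMI-1640 medium with fetal bovine serum. In 3 of them the cells carried a GC0643 expression vector (GC0643 overexpression), and in 3 they carried the vector without it (Vector control). Both lines were made stable by retroviral infection and puromycin selection, so both differ from the parental cells in these ways. GC0643 is a gene predicted from sequence that the human reference genome lacks, and it is not analysed here, so the counts do not check the labels. What was repeated between the 3 libraries of a group is not stated for them, and p-values therefore measure the spread between these libraries only. In cultures measured as a whole, fewer cells in a given state and less RNA per cell cannot be told apart.

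Homologous recombination copies the sister chromatid to mend a DNA break that cuts both strands. The broken ends are found by the MRE11, RAD50 and NBN complex, trimmed to single strands, and prepared for strand exchange by BRCA2 and its partners, while the kinases ATM and ATR halt the cell cycle. The Fanconi anemia pathway acts where the DNA strands are joined by a crosslink: its core complex attaches ubiquitin to FANCD2 and FANCI at the stalled replication fork, after which nucleases open the crosslink and recombination completes the repair. Many of these genes are transcribed mainly in S and G2 phase, and several of them raise the risk of cancer when inherited in mutant form.

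Total counts lay between 20376722 and 21629573 in the GC0643 overexpression libraries and between 20489033 and 24069166 in the Vector control libraries. CPM, the counts scaled to a common library total by TMM, is the unit of level used below. All genes tested were compared in a single fit by edgeR's quasi-likelihood test. The p-values of single genes are given adjusted by Benjamini-Hochberg, and beside them whether the unadjusted p was under 0.05. A log2 fold change is GC0643 overexpression minus Vector control, so a positive one is higher in the GC0643 overexpression libraries. Libraries of 1 group differed by more than sampling noise, with a biological coefficient of variation of 14.8%. Vector control replicate 2 stood above the rest of its group for most of the genes described here, and results are therefore also given without it. It was not the library farthest from the others of its group. Noise between 2 libraries, as chi-squared per degree of freedom, was 12.8 for Vector control replicates 1 and 2. It was 18.5 for replicates 1 and 3 and 45.5 for replicates 2 and 3. Marker genes of a mesenchymal state were abundant (62578 to 74849 summed counts over all libraries, VIM above all), markers of epithelium were low (91 to 169), and those of stomach, endothelium and red cells reached at most 20 summed counts. Of lymphocyte markers, CD3E, CD3D and MS4A1 had no counts and PTPRC had at most 7.

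Most of the 37 genes had slightly higher counts in the GC0643 overexpression libraries. The log2 fold change was positive for 30 genes and negative for 7, with a median of 0.23, against a median of 0.02 over all genes tested. None of the 37 passed an adjusted p of 0.05 (background over all genes: 0%), the smallest adjusted p being 0.26 (RAD50 among others). At an unadjusted p under 0.05 in edgeR's quasi-likelihood test, 11 of 37 were higher (background 13.1%) and 1 was lower (background 5.26%). None changed by more than 1.5-fold at that p, where 1.6% of all genes were higher and 0.871% lower. The 3 GC0643 overexpression libraries lay wholly above the 3 Vector control libraries for 11 genes (background 11.8%) and wholly below them for XRCC3 alone (background 10.5%). The edgeR likelihood ratio test and limma voom called none of the 37 at an adjusted p under 0.05, and DESeq2 called none either.

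**Figure D1:**
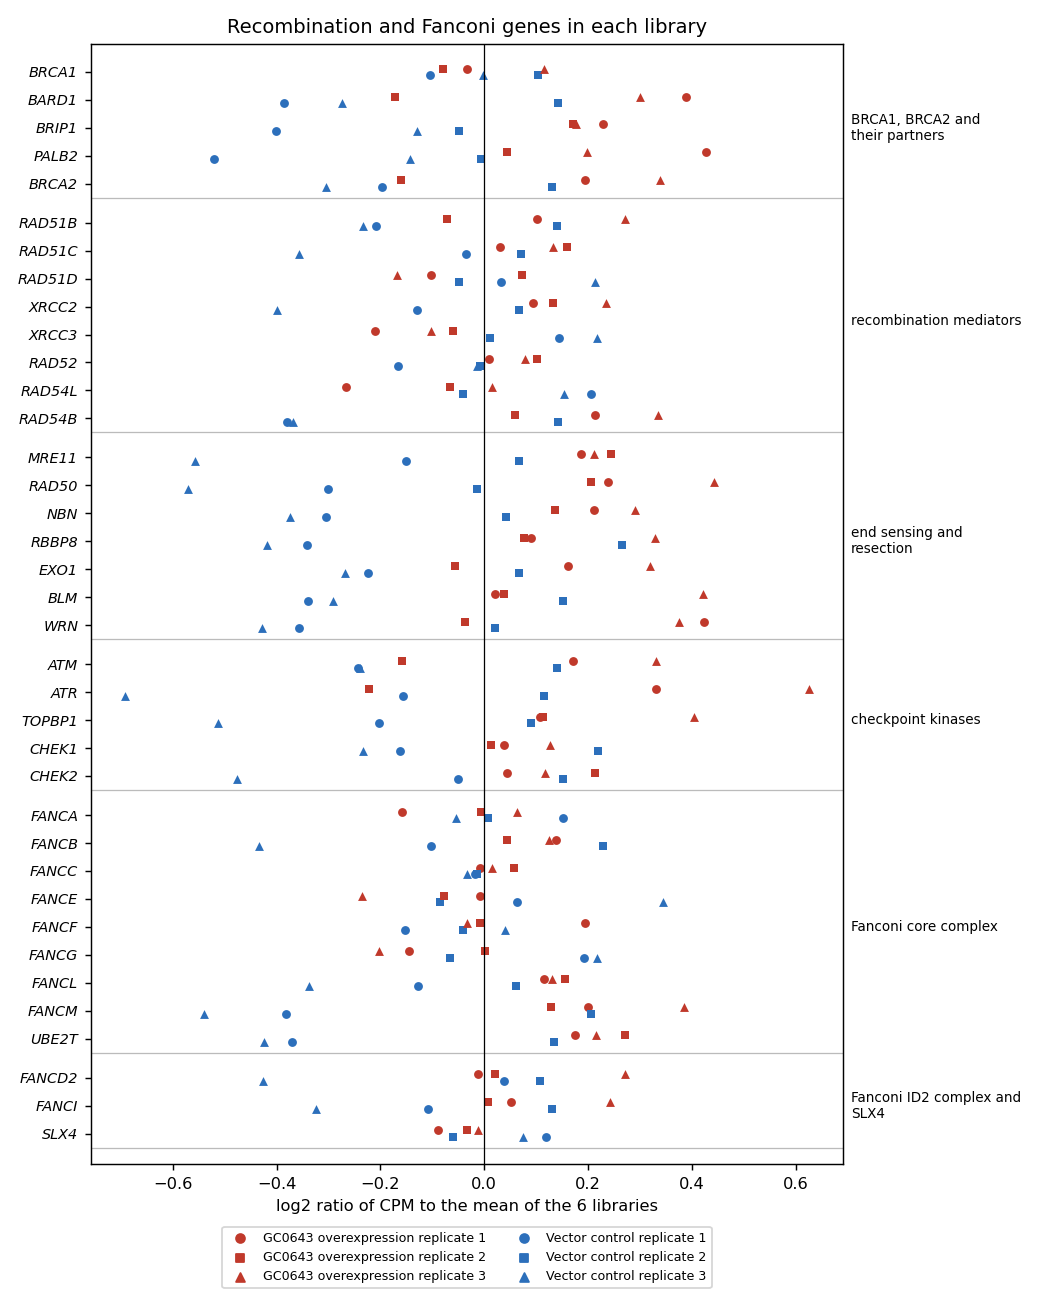
Each point is the log2 ratio of a gene's CPM in 1 library to its mean over the 6 libraries (horizontal axis), with genes in rows by role, GC0643 overexpression in red above Vector control in blue, and replicates 1 to 3 as circle, square and triangle. For most genes Vector control replicates 1 and 3 lie on the left. Vector control replicate 2 is the rightmost blue point for 29 of the 37 genes (share of all genes not counted).

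The libraries of the Vector control group did not move together. Taking each gene as a log2 ratio to its 6-library mean, the median of the 37 genes was 0.10, 0.04 and 0.21 in the GC0643 overexpression libraries. The Vector control medians were −0.16, 0.07 and −0.29, the positive one being that of replicate 2. Vector control replicate 2 was the highest library of its group for 29 of the 37 genes, and Vector control replicate 3 the lowest for 22. Of the 30 genes with a positive fold change, 26 had both Vector control replicates 1 and 3 below all 3 GC0643 overexpression libraries. Replicate 2 lay at or above the lowest of them in 18 of the 30. The shares of all genes with these library orders were not counted, so the orders are not shown to be particular to the 37 genes. Without Vector control replicate 2, 14 of the 37 genes were higher at an adjusted p under 0.05 (background 14.7%) and none was lower (background 4.36%). The median was then 0.37, the largest with any 1 library left out. Those 14 were RAD50, UBE2T, NBN, FANCM, RBBP8, WRN, TOPBP1, RAD54B, MRE11, XRCC2, PALB2, ATR, BLM and, at the threshold itself, BARD1. Without Vector control replicate 3 the median was 0.15, none passed the adjusted p, and 6 genes were higher at the unadjusted p (background 7.71%). That count was 4 without GC0643 overexpression replicate 1 (background 6.5%), also 4 without GC0643 overexpression replicate 3 (background 6.36%), and leaving out Vector control replicate 1 gave 2 (background 4.14%).

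The fold changes followed the base composition of the transcripts. Across the 37 genes, the log2 fold change fell with the GC content of the canonical transcript (Spearman's rho = −0.71, n = 37, given as a description, since the genes share libraries), and over all genes tested with a known GC content it fell likewise (rho = −0.67, n = 19401). Of the 37 genes, 30 lie below the median GC content of all genes (49.4%). Of these 30, 29 had a positive fold change and 11 were higher at the unadjusted p, beside 82.3% positive and 25.3% higher among all genes below that median. Of the 7 genes above it (XRCC3, FANCE, FANCG, SLX4, FANCA, RAD54L and FANCC), only FANCC had a positive fold change, beside 21.5% of all genes above it. The part of base composition in these fold changes was not tested. The correction given next is no such test, since it takes out any difference between libraries that follows GC content, whatever its origin.

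**Figure D2:**
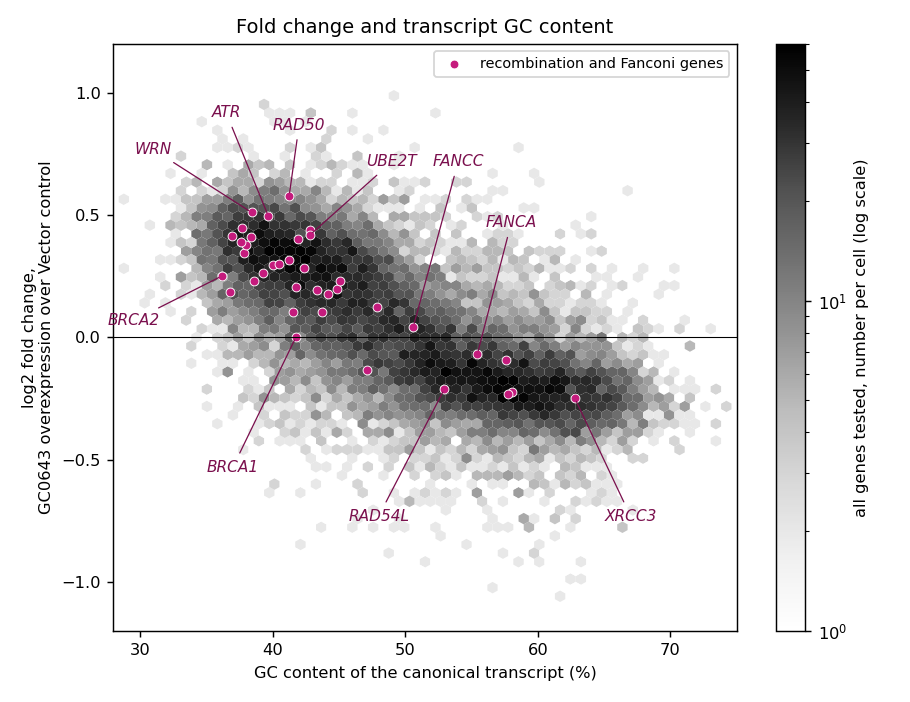
Log2 fold change (vertical axis, GC0643 overexpression over Vector control) against the GC content of the canonical transcript in percent (horizontal axis), with all genes tested as grey cells shaded by their number on a log scale and the 37 genes as points. The 37 genes lie within the grey band, high on the left (RAD50, WRN, ATR) and low on the right (XRCC3).

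After a loess correction of each library for GC content, 20 of the 37 genes had a positive and 17 a negative fold change, with a median of 0.01. RAD50 was then the only one higher at an unadjusted p under 0.05 (background 2.81%), and BRCA1 the only one lower (background 3.49%). Of the 37 corrected fold changes, 22 lay within 0.1 of 0, beside 4 of the uncorrected ones.

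**Figure D3:**
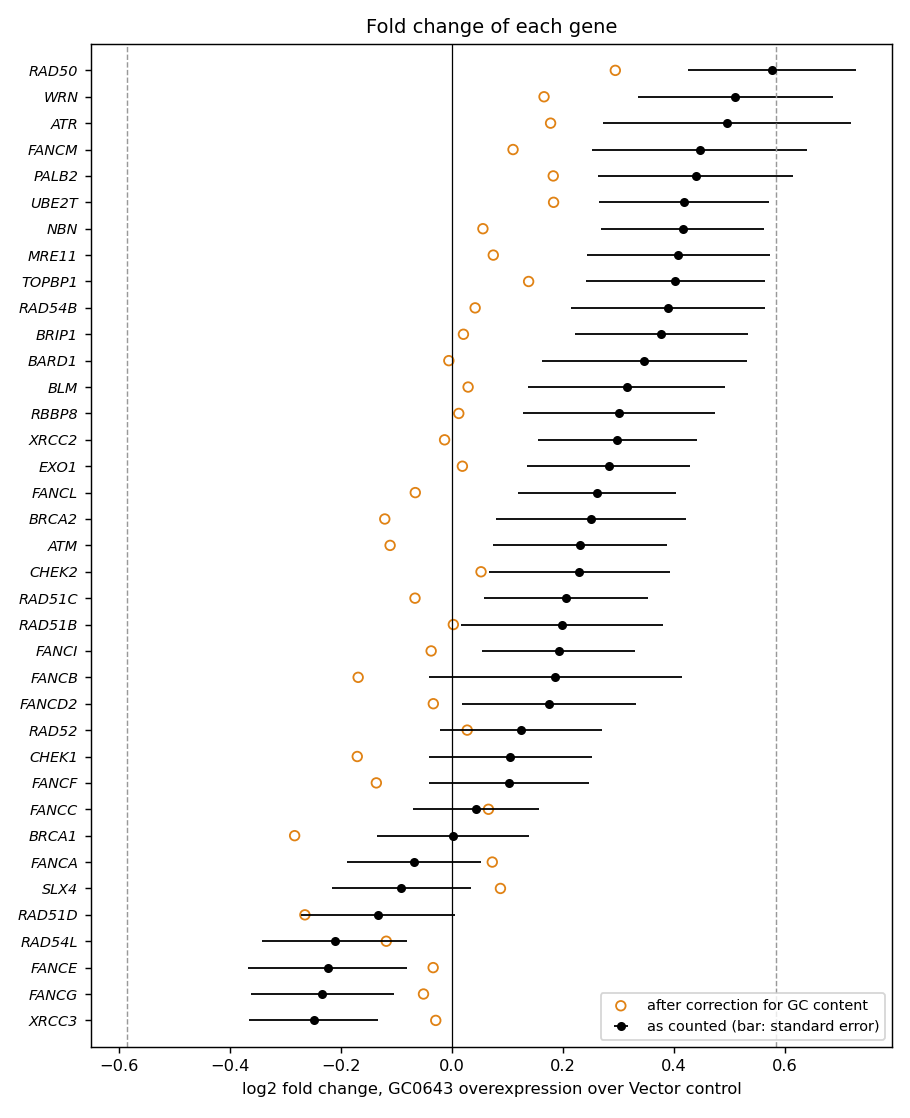
Log2 fold change of each of the 37 genes as counted (filled points, bars 1 standard error) and after correction for GC content (open circles), with dashed lines at a fold change of 1.5 in either direction. No filled point lies outside the dashed lines, and the open circles of most genes lie near 0, RAD50 (0.29) and BRCA1 (−0.28) being farthest out.

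To show this difference in base composition, stretches of 100 bases were taken from the longest coding exon of a pair of AT-rich members (RAD50 and FANCM) and a pair of GC-rich members (XRCC3 and FANCE). Each stretch is the one whose GC content lies nearest to that of its whole transcript. It was read from the canonical transcript sequence of GENCODE 44, on the coding strand, and placed on GRCh38 by its exons. Capitals mark G and C. The RAD50 stretch lies in exon 13 of 25 (chr5:132595651-132595750, 41% GC), the FANCM stretch in exon 14 of 23 (chr14:45175140-45175239, 38%), the XRCC3 stretch in exon 10 of 10 (chr14:103698918-103699017, minus strand, 63%) and the FANCE stretch in exon 2 of 10 (chr6:35455899-35455998, 58%).
RAD50: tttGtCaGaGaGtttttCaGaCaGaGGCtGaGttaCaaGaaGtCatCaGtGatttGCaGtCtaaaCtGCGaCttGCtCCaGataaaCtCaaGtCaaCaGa
FANCM: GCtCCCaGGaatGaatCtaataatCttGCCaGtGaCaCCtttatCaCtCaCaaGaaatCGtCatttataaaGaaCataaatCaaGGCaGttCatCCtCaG
XRCC3: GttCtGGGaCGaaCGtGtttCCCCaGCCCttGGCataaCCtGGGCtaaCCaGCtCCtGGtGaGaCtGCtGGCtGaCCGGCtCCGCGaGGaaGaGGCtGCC
FANCE: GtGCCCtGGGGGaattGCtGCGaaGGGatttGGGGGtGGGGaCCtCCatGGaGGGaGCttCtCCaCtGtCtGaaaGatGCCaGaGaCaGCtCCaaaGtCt

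BRCA1, BRCA2 and their partners prepare the trimmed ends for strand exchange. All 5 genes of this role had a fold change of 0.00 or above, with a median of 0.35 as counted and −0.01 after correction for GC content, and 2 of them, PALB2 and BRIP1, were higher at the unadjusted p. The summed CPM of the 5 genes was 97.5, 81.2 and 98.3 in GC0643 overexpression and 69.7, 89.1 and 75.9 in Vector control, so the groups overlapped.

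BRCA1, a ubiquitin ligase that promotes end trimming (chr17:43044295-43170245), had 25.4, 24.6 and 28.2 CPM in GC0643 overexpression and 24.2, 27.9 and 26.0 CPM in Vector control. Its values interleaved, and the log2 fold change was 0.00 (SE 0.14, adjusted p = 0.99). After GC correction BRCA1 stood at −0.28 (adjusted p = 0.78), while its transcript is AT-rich (41.8% GC). Its sign also changed with the scaling, since DESeq2's size factors gave −0.02.

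BRCA2, which acts on single-stranded DNA at the break (chr13:32315086-32400268), had 20.5, 16.0 and 22.6 CPM in GC0643 overexpression and 15.6, 19.6 and 14.5 CPM in Vector control. GC0643 overexpression replicate 2 lay with the lower and Vector control replicate 2 with the higher values, so the groups overlapped, and the log2 fold change was 0.25 (SE 0.17, adjusted p = 0.40). After GC correction it was −0.12.

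PALB2, the bridge between BRCA1 and BRCA2 (chr16:23603160-23641321), had 16.2, 12.4 and 13.8 CPM in GC0643 overexpression and 8.37, 12.0 and 10.9 CPM in Vector control. Every GC0643 overexpression library lay above every Vector control library, and the log2 fold change was 0.44 (SE 0.18, adjusted p = 0.26), or 0.18 after GC correction. BRIP1, a helicase that binds BRCA1 (chr17:61679139-61863559), had 14.9, 14.3 and 14.3 CPM in GC0643 overexpression and 9.61, 12.3 and 11.6 CPM in Vector control. These groups did not overlap either, and the log2 fold change was 0.38 (SE 0.16, adjusted p = 0.26), or 0.02 after GC correction. BARD1, the partner of BRCA1 in its ubiquitin ligase, had 20.5, 13.9 and 19.3 CPM in GC0643 overexpression and 12.0, 17.3 and 12.9 CPM in Vector control. Its replicate 2 values crossed between the groups, and the log2 fold change was 0.35 (SE 0.19, adjusted p = 0.30).

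The recombination mediators showed fold changes in both directions. Of 8 genes, 5 had a positive and 3 a negative fold change (median 0.16, or −0.02 after GC correction), and RAD54B was higher and XRCC3 lower at the unadjusted p. Their summed CPM was 308, 335 and 337 in GC0643 overexpression and 352, 338 and 352 in Vector control, a sum in which XRCC3 is the largest term.

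XRCC3, a mediator that acts with RAD51C (chr14:103697609-103715504), had 129, 143 and 139 CPM in GC0643 overexpression and 165, 150 and 173 CPM in Vector control. It was the only one of the 37 genes with all GC0643 overexpression libraries below all Vector control libraries, and the log2 fold change was −0.25 (SE 0.12, adjusted p = 0.27). After GC correction it was −0.03. Exons of KLC1, on the opposite strand, cover 76.7% of the XRCC3 exon bases, and no strand setting of the counting is given for these libraries, so reads of the pair cannot be told apart. The counts of both genes summed gave −0.15, with an unadjusted p over 0.05. The unadjusted p of XRCC3 was over 0.05 in each fit without 1 library, with log2 fold changes from −0.30 to −0.21, except the fit without Vector control replicate 2, the one with −0.30.

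RAD54B, a DNA translocase, had 15.4, 13.8 and 16.8 CPM in GC0643 overexpression and 10.2, 14.7 and 10.3 CPM in Vector control. Vector control replicate 2 lay above GC0643 overexpression replicate 2, and the log2 fold change was 0.39 (SE 0.18, adjusted p = 0.27). FSBP, a gene on the same strand, covers 66% of its exon bases and had nearly the same counts, and the pair summed gave 0.41. XRCC2, a mediator that acts with RAD51D, had 39.7, 40.7 and 43.7 CPM in GC0643 overexpression and 33.9, 38.9 and 28.2 CPM in Vector control. These groups did not overlap, though Vector control replicate 2 came close, and the log2 fold change was 0.30 (SE 0.14, adjusted p = 0.28), or −0.01 after GC correction. Of the rest, RAD51B (0.20), RAD51C (0.21) and RAD52 (0.12) had positive fold changes, RAD51D (−0.13) and RAD54L (−0.21) negative ones, all at an unadjusted p over 0.05. For RAD52, a strand-annealing protein, the groups did not overlap.

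The genes of end sensing and resection had the highest median. All 7 had a positive fold change as counted (median 0.41) and also after GC correction (median 0.06), and RAD50, NBN, WRN and MRE11 were higher at the unadjusted p. Their summed CPM was 220, 207 and 246 in GC0643 overexpression and 158, 205 and 144 in Vector control, with GC0643 overexpression replicate 2 and Vector control replicate 2 nearly level.

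RAD50, the ATPase that tethers broken ends (chr5:132556019-132646349), had 55.1, 53.9 and 63.6 CPM in GC0643 overexpression and 38.0, 46.3 and 31.5 CPM in Vector control. All GC0643 overexpression libraries lay above all Vector control libraries. Its log2 fold change of 0.58 (SE 0.15, adjusted p = 0.26) was the largest of the 37 and equals 1.49-fold. It was 0.29 after GC correction, still under the unadjusted threshold but with an adjusted p of 0.78, between 0.44 and 0.73 with any 1 library left out, and positive in all 20 fits run. Without a filter on low counts, RAD50 had an adjusted p of 0.025, in a fit where 224 of 36223 genes passed. A same-strand gene model, ENSG00000283782, covers 76.9% of the RAD50 exon bases and had counts between 754 and 1229, close to those of RAD50. Summed with it, RAD50 stood at 0.54, and how reads over both models were counted is not given for these libraries. The options given for the study's tumour tissue libraries count such a read for each gene it overlaps.

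NBN, which recruits ATM to the ends, had 32.4, 30.8 and 34.3 CPM in GC0643 overexpression and 22.7, 28.8 and 21.6 CPM in Vector control. The groups did not overlap, and the log2 fold change was 0.42 (SE 0.15, adjusted p = 0.26), which shrank to 0.06 after GC correction. WRN, the helicase and exonuclease mutated in Werner syndrome, had 19.3, 14.0 and 18.7 CPM in GC0643 overexpression and 11.2, 14.6 and 10.7 CPM in Vector control. Only the replicate 2 libraries crossed between the groups, and the log2 fold change was 0.51 (SE 0.18, adjusted p = 0.26), or 0.17 after GC correction. MRE11, the nuclease of the complex, followed RAD50 and NBN at 0.41 (adjusted p = 0.26) with groups that did not overlap. RBBP8 (0.30), which starts resection with MRE11, EXO1 (0.28), an exonuclease, and BLM (0.32), a helicase, had overlapping groups and an unadjusted p over 0.05.

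**Figure D4:**
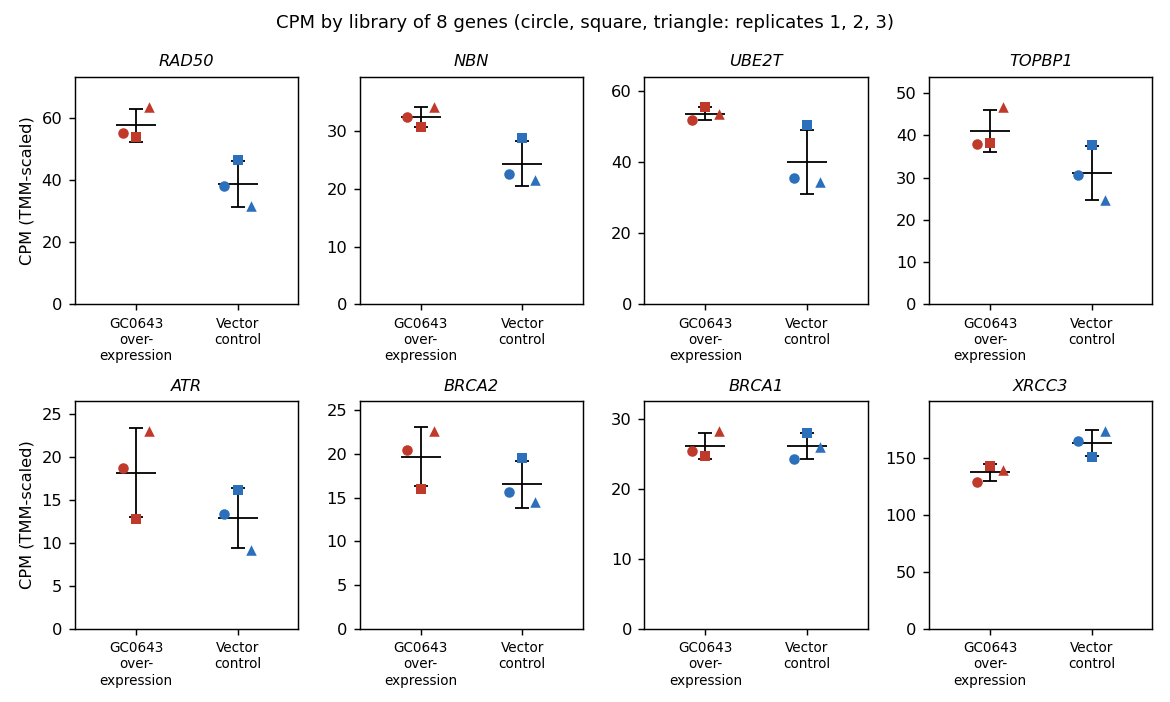
TMM-scaled CPM (vertical axes, each from 0) of 8 genes in the 3 GC0643 overexpression libraries (red, left) and the 3 Vector control libraries (blue, right), with the mean as a line and the standard deviation as a bar. The RAD50, NBN, UBE2T and TOPBP1 groups do not overlap, those of ATR, BRCA2 and BRCA1 do, and XRCC3 is lower in red.

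The checkpoint kinases and TOPBP1 all had positive fold changes, with a median of 0.23 as counted and 0.05 after GC correction. TOPBP1 and ATR were higher at the unadjusted p. Their summed CPM was 161, 148 and 183 in GC0643 overexpression and 131, 163 and 114 in Vector control, and these sums overlapped.

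ATM, the kinase that answers breaks (chr11:108223044-108369102), had 47.5, 37.8 and 53.1 CPM in GC0643 overexpression and 35.7, 46.5 and 35.7 CPM in Vector control. The replicate 2 libraries crossed as they did for BRCA2, and the log2 fold change was 0.23 (SE 0.16, adjusted p = 0.39), against −0.11 after GC correction. ATR, the kinase that answers stalled forks (chr3:142449007-142578733), had 18.7, 12.7 and 23.0 CPM in GC0643 overexpression and 13.3, 16.1 and 9.19 CPM in Vector control. The spread within each group was wide, and the log2 fold change of 0.50 (SE 0.22, adjusted p = 0.27) ranged from 0.29 without Vector control replicate 3 to 0.69 without Vector control replicate 2. TOPBP1, which activates ATR (chr3:133598175-133662380), had 38.0, 38.2 and 46.7 CPM in GC0643 overexpression and 30.7, 37.6 and 24.7 CPM in Vector control. The groups did not overlap, by a narrow margin, and the log2 fold change was 0.40 (SE 0.16, adjusted p = 0.26), or 0.14 after GC correction. The downstream kinases CHEK1 (0.11) and CHEK2 (0.23) had overlapping groups and an unadjusted p over 0.05.

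The Fanconi core complex and its partners had fold changes in both directions. Of 9 genes, 6 had a positive and 3 a negative fold change (median 0.10, or −0.03 after GC correction), and UBE2T and FANCM were higher at the unadjusted p. Their summed CPM hardly differed, at 417, 439 and 429 in GC0643 overexpression and 430, 426 and 418 in Vector control.

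UBE2T, the ubiquitin-conjugating enzyme that serves FANCL (chr1:202331544-202341984), had 51.9, 55.5 and 53.4 CPM in GC0643 overexpression and 35.6, 50.5 and 34.3 CPM in Vector control. The GC0643 overexpression libraries were close to each other and above all Vector control libraries, of which replicate 2 came nearest. For UBE2T the log2 fold change was 0.42 (SE 0.15, adjusted p = 0.26), or 0.18 after GC correction. FANCL, the ubiquitin ligase of the complex, had 27.8, 28.6 and 28.1 CPM in GC0643 overexpression and 23.4, 26.7 and 20.3 CPM in Vector control. The groups did not overlap and the log2 fold change was 0.26 (SE 0.14, adjusted p = 0.31), which turned to −0.07 after GC correction. FANCM, the translocase that anchors the complex to DNA, had 13.4, 12.8 and 15.3 CPM in GC0643 overexpression and 8.96, 13.5 and 8.03 CPM in Vector control. Vector control replicate 2 lay among the GC0643 overexpression libraries, and the log2 fold change was 0.45 (SE 0.19, adjusted p = 0.26). It was 0.71 without Vector control replicate 2 and 0.11 after GC correction.

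The other 6 core genes had fold changes between −0.23 and 0.19. FANCA (−0.07), FANCE (−0.22) and FANCG (−0.23) had negative fold changes and GC-rich transcripts, with 55.4%, 58.1% and 57.7% GC. FANCB (0.19), FANCC (0.04) and FANCF (0.10) had positive ones, and none of these 6 had an unadjusted p under 0.05. FANCC is the one among them whose groups did not overlap, although its CPM differed by little, 93.2, 97.5 and 94.6 in GC0643 overexpression and 92.5, 92.8 and 91.6 in Vector control. ZNF276, on the opposite strand, covers 19.6% of the FANCA exon bases.

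Of the last 3 genes, the ID2 pair FANCD2 and FANCI and the nuclease scaffold SLX4, none passed the unadjusted p and none had groups that did not overlap. FANCD2, the protein that receives ubiquitin (chr3:10026370-10101932), had 37.7, 38.6 and 45.9 CPM in GC0643 overexpression and 39.0, 40.9 and 28.3 CPM in Vector control. Vector control replicate 3 stood below the other 5 libraries, and the log2 fold change was 0.18 (SE 0.16, adjusted p = 0.51), falling to 0.02 without that library. FANCI, its partner, had 88.0, 85.4 and 101 CPM in GC0643 overexpression and 78.8, 93.1 and 67.9 CPM in Vector control. For FANCI, Vector control replicates 1 and 3 lay below all GC0643 overexpression libraries, and Vector control replicate 2 lay among them. The log2 fold change was 0.19 (SE 0.14, adjusted p = 0.41), or 0.08 without Vector control replicate 3. SLX4 had 38.6, 40.1 and 40.7 CPM in GC0643 overexpression and 44.6, 39.4 and 43.2 CPM in Vector control. It is GC-rich (57.6% GC), and its log2 fold change of −0.09 (SE 0.13, adjusted p = 0.68) became 0.09 after GC correction.

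Levels of the 37 genes were set against each other per length, as CPM per kb of canonical transcript over the 6 libraries. XRCC3 (58.4), UBE2T (53.4), FANCG (25.9), FANCA (21.7), RAD54L (20.6) and FANCC (20.4) stood highest, XRCC3 with the reads it may share with KLC1. FANCB (1.14), BRCA2 (1.52), BRIP1 (1.57), FANCM (1.68), ATR (1.90) and WRN (1.95) stood lowest, and BRCA1 lay at 3.68. Of the 36 neighbouring pairs in this order, 35 had overlapping ranges over the 6 libraries, and the only gap lay between UBE2T and FANCG. The conjugating enzyme UBE2T stood above FANCL (15.6), with which it works, and FANCD2 (7.53), onto which ubiquitin is placed, below FANCI (18.1).

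**Figure D5:**
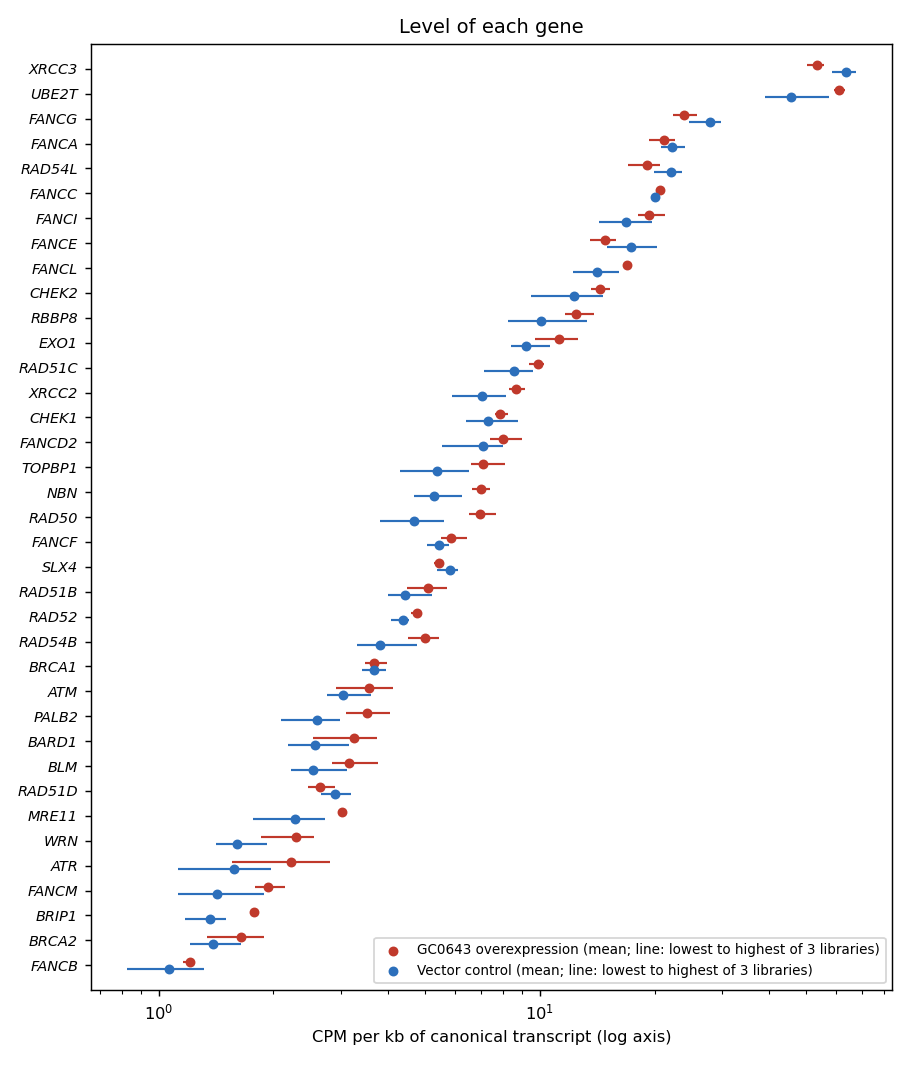
Level of each of the 37 genes in CPM per kb of canonical transcript (horizontal log axis), with GC0643 overexpression in red above Vector control in blue, points for means and lines from the lowest to the highest of 3 libraries. XRCC3 and UBE2T stand apart at the top, and the differences between groups are small beside the range between genes, from 1.14 (FANCB) to 58.4 (XRCC3).

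The promoters of these genes were searched for letters known from cell cycle genes, since E2F factors drive many repair genes at the start of S phase. RefSeq promoters (GRCh38.p14), running from 250 bases before to 50 after the start, were matched for 33 of the 37 genes, and both strands were searched. A single start was kept for each gene, which need not be its main one, and other starts were not searched. The start used lies inside the gene for RAD51B, RBBP8, FANCC and RAD52, among others. E2F letters (TTTGGCGC, TTTCGCGC, TTCCCGCC or TTCGCGCC) were found in 11 of the 33 promoters (33.3%), beside 4.99% of 27305 promoters in the table. They were those of BLM, BRIP1, EXO1, FANCC, FANCD2, FANCL, RAD52, RAD54L, TOPBP1, XRCC2 and XRCC3. The CCAAT box (CCAAT) was found in 13 (39.4%, beside 35.7%), and the CHR letters (TTTGAA or TTTCGAA) in 4 (12.1%, beside 15.9%). A match is a description of the letters and no evidence of binding. The 11 genes with E2F letters had fold changes from −0.25 (XRCC3) to 0.40 (TOPBP1) with a median of 0.26, and the 22 without them had a median of 0.22.

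The 100 bases before the start are shown for 4 genes whose E2F letters lie within them, on the strand of the gene, a pair without overlap between the groups (TOPBP1 and FANCL) and a pair with it (BLM and RAD54L). Capitals mark the letters of the E2F motif and of the CCAAT box on either strand; a motif that runs past the start is cut there. They lie at chr3:133661942-133662041 (TOPBP1, minus strand), chr2:58241326-58241425 (FANCL, minus strand), chr15:90717246-90717345 (BLM, plus strand) and chr1:46247588-46247687 (RAD54L, plus strand).
TOPBP1: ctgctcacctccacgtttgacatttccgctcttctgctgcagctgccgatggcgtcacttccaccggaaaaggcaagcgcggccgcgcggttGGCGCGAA
FANCL: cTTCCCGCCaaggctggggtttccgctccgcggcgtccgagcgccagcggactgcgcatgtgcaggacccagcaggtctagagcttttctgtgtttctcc
BLM: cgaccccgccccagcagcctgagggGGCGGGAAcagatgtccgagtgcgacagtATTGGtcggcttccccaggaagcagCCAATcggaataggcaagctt
RAD54L: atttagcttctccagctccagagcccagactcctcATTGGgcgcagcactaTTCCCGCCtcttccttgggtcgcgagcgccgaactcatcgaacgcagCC

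Counted from the start, the E2F letters begin at −8 in TOPBP1 (log2 fold change 0.40), at −99 in FANCL (0.26), at −75 in BLM (0.32) and at −49 in RAD54L (−0.21). TOPBP1 has a further, overlapping match that begins at −7. BLM has a further match that begins at position 3 after the start, outside the stretch shown.

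Other genes of the pathway also had mostly positive fold changes. Of 89 listed genes, 88 were tested, and 57 had a positive and 31 a negative fold change, with a median of 0.18 (0.02 after GC correction). At the unadjusted p, 20 were higher (background 13.1%) and 4 lower (background 5.26%), and none passed the adjusted p. After GC correction 1 was higher (POLN, 0.50, a DNA polymerase, named after its value was seen, background 2.81%) and 3 were lower (MUS81, SLX1B and TOP3A, background 3.49%). POLN had 9.28, 9.44 and 8.92 CPM in GC0643 overexpression and 7.49, 7.33 and 4.41 CPM in Vector control. As counted, its log2 fold change was 0.53. Without Vector control replicate 3 it was 0.31, with an unadjusted p over 0.05. The higher ones as counted included ETAA1 (0.51), which activates ATR, RAD51AP1 (0.58), a helper of strand exchange, TIPIN (0.53), which protects forks, and FIGNL1 (0.46), an ATPase of recombination. After GC correction these stood at 0.13 for ETAA1, 0.23 for RAD51AP1, 0.24 for TIPIN and 0.12 for FIGNL1. As counted, all 4 had an unadjusted p under 0.05 also where Vector control replicate 2 or Vector control replicate 3 was left out. The 4 lower ones as counted were MUS81 (−0.42), a crossover nuclease, SLX1B (−3.21), a nuclease that SLX4 holds, and, named after their values were seen, FAAP100 (−0.34) of the core complex and TOP3A (−0.27), a topoisomerase that works with BLM. The value of SLX1B rests on 1 library, since it had 0.37, 0.85 and 0.44 CPM in GC0643 overexpression and 0.59, 0.68 and 14.1 CPM in Vector control. It was −0.20 without Vector control replicate 3, and the near-identical copy SLX1A stood at −0.33, so the split of reads between the copies is uncertain. Without that library, FAAP100 (−0.22) and TOP3A (−0.19) no longer had an unadjusted p under 0.05 either.

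Genes of the cell cycle were measured beside the 37. Of 15 genes of G2 and M phase, 12 had a positive fold change and 7 were higher at the unadjusted p (background 13.1%), with a median of 0.34. After GC correction the median was 0.16 and 1 of the 15 was higher (CENPE, named after its value was seen, background 2.81%). The median of this list lay at 0.07, 0.11 and 0.32 (log2 ratio to the mean of 6 libraries) in GC0643 overexpression and at −0.19, 0.16 and −0.56 in Vector control, so Vector control replicate 2 stood with the GC0643 overexpression libraries here too. Of 15 genes of S phase, 10 had a positive fold change and 3 were higher (background 13.1%), with a median of 0.10. After GC correction that median was 0.06 and PCNA, named after its value was seen, was the 1 gene higher (background 2.81%). On the log2 ratio scale the S phase list lay at −0.09, 0.15 and 0.11 in GC0643 overexpression and at 0.08, 0.09 and −0.42 in Vector control, so its groups overlapped and GC0643 overexpression replicate 1 stood below Vector control replicates 1 and 2. The part of the cell cycle in the values of the 37 genes was not tested.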

How the data were processed

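Per the submitters' processing notes, the authors used Trimmomatic 0.32, HISAT2 2.1.0 with GRCh38 and featureCounts 2.0.0 on reads of NEBNext Ultra libraries. The deposited values are raw counts per Ensembl gene. The study gives featureCounts options for its tumour tissue libraries, which count a read for every gene it overlaps and name no strand setting. For the HGC-27 libraries these options are not given in the sources used here. GENCODE version 44 held 58472 of the 58825 IDs, and its canonical transcripts were used for length and GC content.

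Genes with low counts were removed from the whole table by filterByExpr (edgeR 4.0.16), TMM factors were computed, and a quasi-likelihood model with the group alone was fitted in R 4.3.3. The Benjamini-Hochberg adjustment covered all 19528 genes tested. GC and length corrections were loess offsets for each library (span 0.3, prior count 1). The other fits were the likelihood ratio test, DESeq2 1.42.0, voom in limma 3.58.1, other scalings and filters, a replicate block and the omission of each library. The sums with overlapping genes, and the GC correction without Vector control replicate 2, were added after seeing the data. The code was tested on simulated counts. Figures were drawn in Python 3.11.15 with matplotlib 3.10.9.

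The 37 genes and the lists were chosen with earlier results of these data known. Values in every library are given for BRCA1, BRCA2, ATM, ATR, FANCD2 and the 3 genes of each role with the smallest p, and of the other pathway genes up to 6 with the smallest p are named. Sequences come from RefSeq promoters and the GRCh38 genome.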

Additional observations from a re-analysis of the deposited data

How the results depend on the processing

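Among the 37 genes, the counts of higher and lower genes at an unadjusted p under 0.05 were 11 and 1 (background 13.1% and 5.26%). The likelihood ratio test, no filter on low counts and the replicate block each gave 0 lower genes (background 5.02%, 3.74% and 1.61%). No filter on low counts gave 1 gene past the adjusted p (RAD50, background 0.618%). With the replicate block 9 genes were higher (background 9.96%) and the median was 0.25. The replicate numbers did not pair the libraries, since same-numbered libraries deviated from their group means with correlations of −0.21, −0.03 and −0.31, and the block changed no other count of these by more than 1.5 times. The transcript length correction left 5 genes higher (background 8.44%). The GC correction left 1 gene higher (background 2.81%) and a median of 0.0127, and with the replicate block 1 (background 1.8%) and 0.0155. The GC correction without Vector control replicate 2 gave 2 higher (background 5.94%), 2 lower (background 5.89%) and a median of 0.022. With each library left out in turn, between 2 and 22 genes were higher, 0 to 4 lower and 0 to 14 past the adjusted p, with medians from 0.15 to 0.37. The counts of 22, 4 and 14 came where Vector control replicate 2 was left out, beside 22.8% of all genes higher, 14.2% lower and 19.1% past the adjusted p, and the count of 2 where Vector control replicate 1 was, beside 4.14% higher. The causes were not tested.

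Under the GC correction, alone and with the replicate block, the sign turned for ATM (−0.11 and −0.12), BRCA2 (−0.12 and −0.13), BARD1 (−0.0052 and −0.0138), FANCD2 (−0.0332 and −0.0312), FANCI (−0.0371 and −0.0384), FANCL (−0.0657 and −0.0665), XRCC2 (−0.0129 and −0.0131), RAD51C (−0.0662 and −0.0666), CHEK1 (−0.17 and −0.17), FANCA (0.0731 and 0.0756), FANCB (−0.17 and −0.17), FANCF (−0.14 and −0.13), SLX4 (0.0878 and 0.0882) and BRCA1 (−0.28 and −0.28). BRCA1 also stood at −0.025 with DESeq2, −0.0249 with DESeq2's size factors, −0.0016 with CPM over 1 in at least 3 libraries, −0.0168 over protein-coding genes only and −0.17 after the length correction, and between −0.0569 and 0.0573 with 1 library left out. Over all genes, the genes past the adjusted p numbered 0 in the quasi-likelihood fit, 16 in the likelihood ratio test, 11 in DESeq2 and 0 in limma voom. The depth was lowest for FANCB, with 60 to 82 counts per library.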

Other observations

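Among the 37 genes, the pattern over the 6 libraries most like that of BRCA2 was found in the kinase ATM (Pearson's r = 0.99), followed by RAD51B (0.98), the exonuclease EXO1 (0.98) and ATR (0.96), as a description over 6 libraries of 2 groups. RAD51D (−0.95) and FANCG (−0.94) ran opposite to BRCA2. The pseudogenes CHEK2P1 to CHEK2P5 and FANCD2P2 had no counts, and BRCA1P1 had 6, 6 and 6 counts in GC0643 overexpression and 6, 8 and 4 in Vector control.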
